A study of Rattus norvegicus with 30 samples.

Results

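Removing 30% of the liver and leaving a rat without any operation are the 2 ends of the comparison described here, which takes surgery and resection together. The samples were livers of wild-type Wistar rats, 6 after 30% partial hepatectomy (PH30) and 6 with no treatment (called baseline in the titles and unoperated here), chosen by the treatment stated for each rat. They are 12 of the 30 rats of the series, whose other 18 had 70% or 90% hepatectomy or a sham operation, 6 in each. PH30 and sham livers were removed 24 hours after surgery. The groups were formed at random per the series' design text. Frozen liver pieces gave the RNA, which carried a biotin label and was hybridised, rat by rat, to Rat Gene 2.0 ST arrays of Affymetrix. The sham rats, operated on without resection, are set beside the comparison throughout. The sources used here do not give the age or sex of the rats or the handling of the unoperated group. Rats carry numbers, which serve as names and pair no rats. The unoperated group holds numbers 145 to 152 and the operated groups 37 to 143, so the order of the rats and the lack of an operation cannot be told apart.

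Cutting away part of a liver makes the remaining hepatocytes leave quiescence, copy their DNA and divide, until the mass of the organ is restored. Any operation also sets off the acute phase response, in which cytokines such as interleukin-6 act on hepatocytes through the transcription factor STAT3 and shift the proteins that the liver secretes into blood. Hepatocytes otherwise spend much of their transcription on metabolism: oxidation and conjugation of foreign compounds, urea formation, fatty acid oxidation and glucose storage.

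Values are read as log2 intensities, the scale that the stated RMA method gives. The deposited table does not name its scale, and every fold change rests on that reading. The values are centred probe set by probe set on the median of the 30 rats, so a value of 0 is the middle rat of the series and not an absent transcript. A level cannot be read from them, genes cannot be ranked by level, and the presence of liver markers could not be checked. All 18166 genes with a probe set that names exactly 1 gene were tested with limma, and a gene was called at a Benjamini-Hochberg adjusted p below 0.05 over all of them. Differences are PH30 minus unoperated means of 6 rats each, with the moderated standard error (SE) after the ± sign. In tissue RNA, fewer cells of a type and less RNA per cell cannot be told apart.

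Between PH30 and unoperated livers 1789 genes were called (9.85% of those tested). Of these, 632 were higher in PH30 livers (3.48%) and 1157 were lower (6.37%). Counts of called list members below are to be read beside these shares. Most differences were small, with a median size of 0.40 on the log2 scale among the called genes, and 35 called genes were more than 2-fold higher and 36 more than 2-fold lower. Over all genes the median difference was 0.02. The ranges of the 2 groups did not overlap, with every PH30 rat higher, for 329 genes (1.81%), and with every PH30 rat lower for 592 (3.26%). The 15 largest rises included secreted proteins of the acute phase and 3 histone genes, and the 15 largest falls included enzymes and a transporter of metabolism.

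The array labelled PH30 rat 95 stood apart from its group. Its mean correlation with the other PH30 arrays was -0.11, against 0.18 to 0.24 for the other 5, and its mean correlation with the arrays of 70% hepatectomy was 0.50, within the 0.49 to 0.55 that the other 5 arrays of the 70% group showed with their own group. The array of rat 139, of the 70% group, correlated at -0.11 on average with its own group and at 0.20 with the sham arrays. With the PH30 arrays its mean correlation was -0.0038. The other 5 PH30 arrays ranged from -0.10 to 0.22 in mean correlation with the 70% arrays. The labels of both rats are open to doubt. Spread among rats of the same treatment is another reading, and neither was tested. The files do not settle whether labels were exchanged, and every PH30 mean holds rat 95 unless its removal is stated. Without both arrays, 1058 genes were called higher and 1607 lower. Rat 95 lay beyond every unoperated rat for 66.0% of the genes called higher and 67.9% of those called lower, against 82.8% to 91.5% and 86.3% to 94.0% for the other PH30 rats. Counts and medians of list members in PH30 against unoperated rats are therefore also given without rats 95 and 139. Rat 139 enters no mean of the comparison and bears only on the estimate of spread. Values of PH30 against sham all include rat 95. Without PH30 rat 65 the calls fell to 459 higher and 791 lower, the lowest counts among those with 1 rat left out, and without rat 95 they were 907 and 1455.

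**Figure D1:**
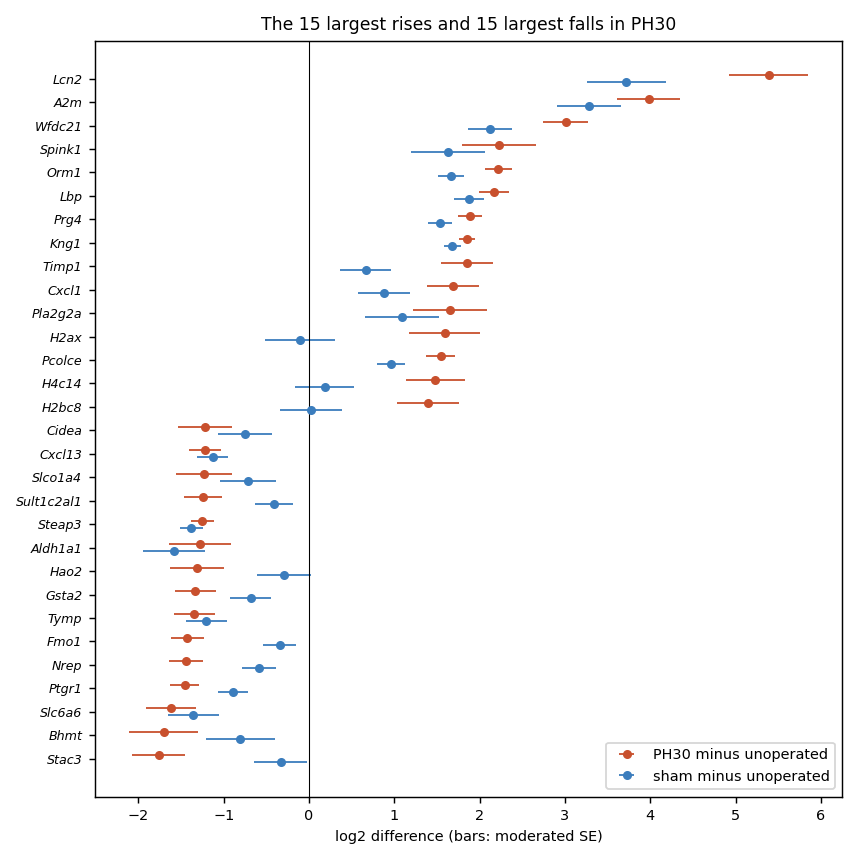
Log2 difference from unoperated rats (horizontal axis) of the 15 genes that rose most and the 15 that fell most in PH30 livers (vertical axis), for PH30 (red) and sham (blue), 6 rats per group, with moderated SE as bars. Lcn2 heads the rises at 5.39 and Stac3 the falls at -1.76. The red and blue estimates share the unoperated arrays.

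The acute phase list, the plasma proteins the liver makes after injury together with metal-binding proteins, held the 2 largest rises. Of its 26 measured members 17 rose and 2 fell, with a median log2 difference of 0.31. For 15 members every PH30 rat was above every unoperated rat, and for 3 every PH30 rat was below. Over all genes these held for 1.81% and 3.26%. Counts without rats 95 and 139 were 17 higher and 2 lower, and the median was 0.30. Lcn2, which encodes lipocalin-2, a binder of bacterial siderophores, lay from -5.70 to -4.83 (median -5.09) in unoperated rats and from -1.69 to 1.59 (median 0.66) in PH30 rats. The groups were far apart, with PH30 rats 99 and 140 the lowest of the operated ones. Its rise was 41.9-fold (log2 difference 5.39 ± 0.46, adjusted p = 6.93e-09). A2m, alpha-2-macroglobulin, the classical protease inhibitor of the rat acute phase, ranged from -4.68 to -3.10 (median -3.89) without operation and from -0.52 to 0.82 (median 0.088) after resection. No PH30 rat came within 2 log2 units of the highest unoperated rat, and the difference was 15.8-fold (log2 difference 3.98 ± 0.37, adjusted p = 3.89e-08). Orm1, the carrier alpha-1-acid glycoprotein, spanned from -1.99 to -1.53 (median -1.81) in unoperated and from -0.046 to 0.74 (median 0.52) in PH30 livers, again without overlap. It rose 4.66-fold (log2 difference 2.22 ± 0.16, adjusted p = 9.94e-11). Lbp, the lipopolysaccharide-binding protein, rose 4.49-fold, log2 difference 2.17 ± 0.17, adjusted p = 1.35e-09. Kng1, kininogen, rose 3.6-fold, log2 difference 1.85 ± 0.096, adjusted p = 1.04e-13, and because rat T-kininogen genes are nearly identical to it the probe set may read them too. Hp, haptoglobin, which binds free hemoglobin, lay from -0.71 to -0.50 (median -0.54) in unoperated rats and from -0.015 to 0.11 (median 0.071) in PH30 rats, without overlap, and rose 1.56-fold (adjusted p = 3.79e-11).

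Timp1, an inhibitor of matrix metalloproteases, rose unevenly. PH30 rat 65 was at -1.80, inside the unoperated range from -2.21 to -1.57 (median -1.95), while the other 5 PH30 rats lay between -0.11 and 0.64. The difference was 3.6-fold (log2 difference 1.85 ± 0.30, adjusted p = 0.000225). The metallothioneins Mt1 and Mt2A, small zinc-binding proteins of closely alike sequence, rose by 1.05 ± 0.26 (adjusted p = 0.01) and 1.24 ± 0.28 (adjusted p = 0.00412). Cp, ceruloplasmin, a copper ferroxidase of plasma, rose by 0.41 (adjusted p = 0.00529), and Itih4, a heavy chain of the inter-alpha-trypsin inhibitor family, by 0.45 (adjusted p = 0.000275). Both called falls were in negative acute phase proteins, Ttr (transthyretin, log2 difference -0.20 ± 0.048, adjusted p = 0.00587) and Ahsg (fetuin-A, log2 difference -0.17 ± 0.042, adjusted p = 0.00939). Alb, albumin, was lower in every PH30 rat than in every unoperated rat but missed the threshold (log2 difference -0.085 ± 0.032, adjusted p = 0.0891).

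Several of the 15 largest rises lay outside the list. Wfdc21, a small whey acidic protein domain gene, ranged from -3.15 to -1.80 (median -2.21) in unoperated and from -0.26 to 1.32 (median 0.84) in PH30 rats, and it rose 8.05-fold (log2 difference 3.01 ± 0.26, adjusted p = 8.04e-09). PH30 rat 140 was the lowest operated animal and still above every unoperated one. Spink1, a secreted trypsin inhibitor, rose 4.69-fold, log2 difference 2.23 ± 0.43, adjusted p = 0.0012, and its PH30 rats were spread widely, from -0.23 to 2.87 (median 1.09). Prg4, the lubricating glycoprotein lubricin, rose 3.7-fold, log2 difference 1.89 ± 0.14, adjusted p = 4.53e-10. Cxcl1, a chemokine that draws neutrophils, lay within -1.01 to -0.92 in unoperated rats and reached 0.00062 to 1.21 in PH30 rats (log2 difference 1.69 ± 0.31, adjusted p = 0.000654). Pcolce, which enhances procollagen processing, rose 2.91-fold, log2 difference 1.54 ± 0.16, adjusted p = 4.26e-07. Pla2g2a, a secreted phospholipase, rose 3.14-fold, log2 difference 1.65 ± 0.43, adjusted p = 0.0131, and PH30 rat 65, at -0.67, overlapped the unoperated range of -1.46 to -0.21. Macrophage markers also moved in these livers, 5 of 20 called higher, and their part in the rises was not tested.

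Upstream of these proteins, 6 of 20 measured genes of interleukin-6 and interleukin-1 signalling rose and 1 fell (median 0.14; 6 higher and 1 lower, median 0.15, without rats 95 and 139). Stat3, the transcription factor that carries the interleukin-6 signal, was at -1.16 to -0.95 in unoperated and at -0.15 to 0.25 in PH30 livers. Each group was tight and the gap wide, with a 2.05-fold rise (log2 difference 1.04 ± 0.15, adjusted p = 3.87e-05). Bcl3, a nuclear partner of NF-kappaB, rose 2.01-fold, log2 difference 1.0 ± 0.17, adjusted p = 0.00032. Il1rn, the secreted antagonist of the interleukin-1 receptor, rose by 0.97 ± 0.25 (adjusted p = 0.0116), and Tnfrsf1a, a receptor of tumor necrosis factor, by 0.64 ± 0.11 (adjusted p = 0.000513). Osmr, a receptor subunit for oncostatin M, and Socs3, the feedback inhibitor of STAT3 signalling, were called higher by 0.82 (adjusted p = 0.0308) and 0.73 (adjusted p = 0.035), and the kinase Jak1 lower by 0.29 (adjusted p = 0.033). These calls were not kept when single rats were left out: Osmr lost its call without any 1 of PH30 rats 98, 99 and 130 and unoperated rats 145, 152, 150 and 151 (log2 difference 0.68 to 0.82, adjusted p = 0.0533 to 0.0876), Socs3 without any 1 of PH30 rats 65, 98 and 140 and unoperated rats 152, 147, 148 and 150 (log2 difference 0.67 to 0.75, adjusted p = 0.0504 to 0.0754), and Jak1 without any 1 of PH30 rats 65, 99 and 130 and unoperated rats 145, 152, 147 and 150 (log2 difference -0.29 to -0.24, adjusted p = 0.0555 to 0.1).

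Promoter sequences were at hand, from the RefSeq annotation of assembly GRCr8, for 22 of the 26 measured acute phase genes and for 14 of the 17 that rose. The letters TTCNNNGAA, the core that STAT proteins recognise, read alike on either strand and were searched in the 250 bases before each start. They stood in 7.52% of all 27457 promoters, in 5 of the 22 acute phase promoters and in 4 of the 14 of called genes (Itih4, Serpina3n, Fga and Fgb). Sequences of Itih4 (chr16:6086735-6086984, plus strand) and Fga, the fibrinogen alpha chain (chr2:170671919-170672168, plus strand), are shown because they place the matched letters, in capitals, at different distances from the start, which follows the last base.
Itih4: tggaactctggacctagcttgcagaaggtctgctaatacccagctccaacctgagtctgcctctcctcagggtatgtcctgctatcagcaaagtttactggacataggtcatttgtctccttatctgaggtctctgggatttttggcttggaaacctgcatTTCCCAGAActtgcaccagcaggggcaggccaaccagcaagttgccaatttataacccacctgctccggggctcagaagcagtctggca
Fga: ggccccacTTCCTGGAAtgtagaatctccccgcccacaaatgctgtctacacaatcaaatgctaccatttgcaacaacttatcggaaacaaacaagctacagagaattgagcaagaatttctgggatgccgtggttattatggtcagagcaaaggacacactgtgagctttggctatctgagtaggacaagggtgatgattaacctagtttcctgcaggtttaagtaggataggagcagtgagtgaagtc
Counted from the start, the match begins at -89 in Itih4 and at -242 in Fga. Orm1 and Lcn2 hold no match in this window.

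Among the 25 measured complement genes 9 rose and 2 fell (median 0.32; 12 higher and 3 lower, median 0.36, without rats 95 and 139). C9, the pore-forming end of the cascade, moved from -0.75 to -0.49 in unoperated rats to a range of -0.028 to 0.34 in PH30 rats (log2 difference 0.75 ± 0.13, adjusted p = 0.000616). Serping1, the inhibitor of the first complement component, rose by 0.74 ± 0.11 (adjusted p = 8.21e-05). C4bpa, the binding protein that restrains C4, rose by 0.62 (adjusted p = 1.3e-05), and C5, the source of the C5a peptide, by 0.60 (adjusted p = 0.00146). C8g fell, as did the lectin Mbl2 (log2 difference -0.90 ± 0.26, adjusted p = 0.0252). Mbl2 lost its call without any 1 of PH30 rats 65 and 98 and unoperated rat 150 (log2 difference -0.88 to -0.84, adjusted p = 0.0509 to 0.0611). The count of complement genes called higher was 6 without PH30 rat 98, PH30 rat 99 or unoperated rat 147, and 12 without PH30 rat 95.

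Coagulation genes moved in both directions. Of 27 measured members 2 rose, Kng1 and Serpina10, and 5 fell (median -0.066; 3 higher and 5 lower, median -0.016, without rats 95 and 139). Serpina10, the protein Z-dependent protease inhibitor, rose by 0.72 ± 0.14 (adjusted p = 0.00139). Pros1, the anticoagulant protein S, fell by 0.62 ± 0.15 (adjusted p = 0.00783), and Hrg, histidine-rich glycoprotein, by 0.56 ± 0.13 (adjusted p = 0.00679). Coagulation factor XI (F11) fell by 0.57 (adjusted p = 0.027), but was not called without any 1 of PH30 rats 65 and 98 and unoperated rats 148, 150 and 151 (log2 difference -0.56 to -0.47, adjusted p = 0.0536 to 0.087). The other falls were in Proc and Plg, which encode protein C and plasminogen. Of 20 plasma carriers and apolipoproteins 0 (0 at an unadjusted p below 0.05) rose and 2 fell (median -0.21; 0 higher and 3 lower, median -0.18, without rats 95 and 139). The falls were Ttr and Apoc2, the activator of lipoprotein lipase (log2 difference -0.33 ± 0.089, adjusted p = 0.0149), and the count was 4 without PH30 rat 98 and without PH30 rat 140. With all rats, the share of this list called was close to the 9.85% called over all genes tested.

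**Figure D2:**
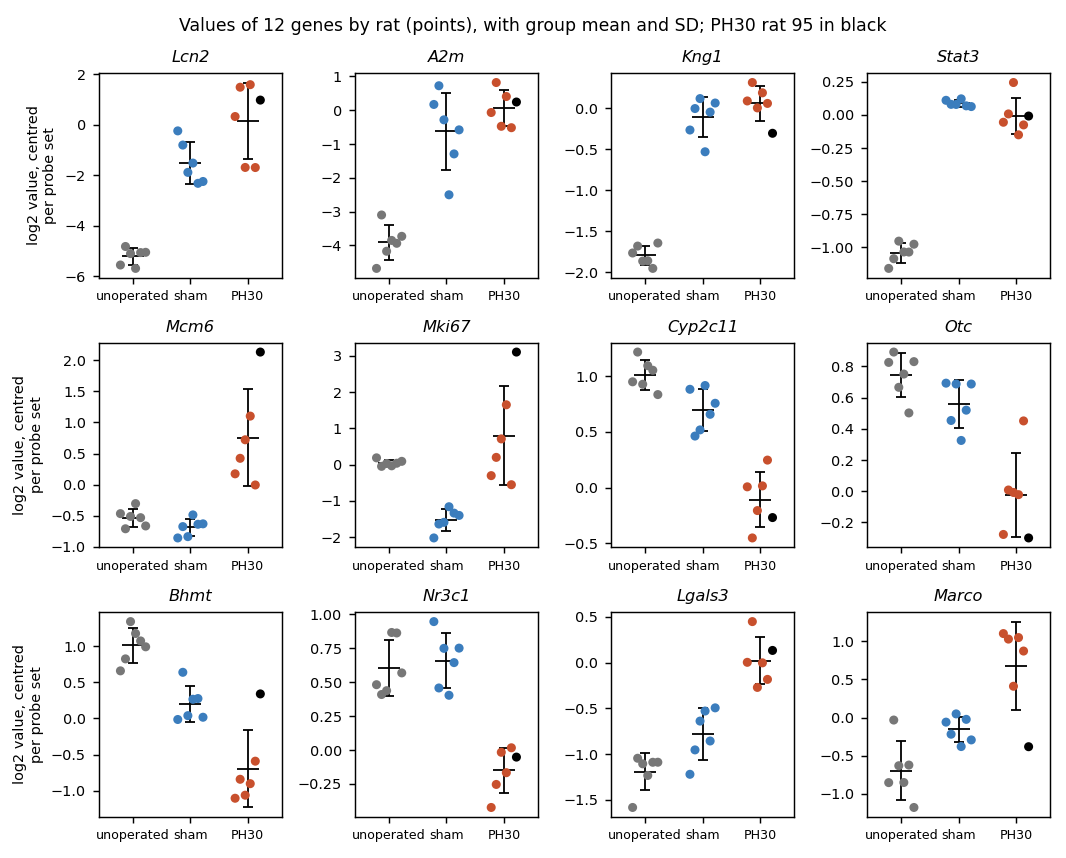
Centred log2 value (vertical axis) of 12 genes in each unoperated, sham and PH30 rat (points; horizontal axis, group), with the group mean and SD, n = 6. PH30 rat 95 is in black. PH30 and unoperated points do not overlap for Lcn2, A2m, Kng1, Stat3, Mcm6, Cyp2c11, Otc, Bhmt, Nr3c1 and Lgals3, and they overlap for Mki67 and Marco.

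Of 39 measured DNA replication genes 7 were called higher and 0 (0 at an unadjusted p below 0.05) lower, with a median of 0.37 (12 higher and 0 lower, median 0.25, without rats 95 and 139). The mean of the list was -0.22 in PH30 rat 140, inside the unoperated range from -0.24 to -0.17, and 1.14 in rat 95. All 7 called genes encode parts of the machinery that opens or coats DNA at the fork: the helicase subunits Mcm2, Mcm3, Mcm4, Mcm5 and Mcm6, their partner in the active helicase, Cdc45, and the single-strand binding subunit Rpa2. Mcm6 lay from -0.71 to -0.30 (median -0.52) in unoperated rats and from -0.0047 to 2.13 (median 0.57) in PH30 rats. Every PH30 rat was above every unoperated rat, rat 95 highest at 2.13 and rat 140 lowest at -0.0047. The rise was 2.44-fold (log2 difference 1.29 ± 0.35, adjusted p = 0.0177). Mcm3 rose 1.93-fold, log2 difference 0.95 ± 0.24, adjusted p = 0.0117, with rat 95 at 1.39 and the others between -0.12 and 0.34. Mcm4 rose by 0.65 ± 0.18 (adjusted p = 0.0206). Mcm5 and Mcm2 were called higher by 1.06 (adjusted p = 0.0382) and 0.72 (adjusted p = 0.0279). Mcm5 lost its call without any 1 of PH30 rats 65, 99, 130 and 95 and unoperated rats 145, 152, 147, 148, 150 and 151 (log2 difference 0.75 to 1.09, adjusted p = 0.0527 to 0.0914), and Mcm2 without any 1 of PH30 rats 130 and 95 and unoperated rat 145 (log2 difference 0.58 to 0.69, adjusted p = 0.0543 to 0.0646). The count of 7 was 3 without PH30 rat 130, PH30 rat 95 or unoperated rat 145, and 4 without PH30 rat 99 or any of the other 5 unoperated rats. It was 5 without PH30 rat 98 and 11 without PH30 rat 140. Rpa2 and Cdc45 had the highest adjusted p of the called genes (0.0438 and 0.0488). Neither was called in the removals that left 3, 4 or 5.

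The letters TTTCCCGC or TTTGGCGC, which E2F factors recognise, were searched on both strands of the same promoter windows. They stood in 1.26% of the 27457 promoters, in 7 of 34 DNA replication promoters and in 2 of the 6 at hand for genes called higher. Both of these are printed, Mcm6 (chr13:42404353-42404602, minus strand) and Mcm5 (chr19:13488563-13488812, plus strand), with the matched letters in capitals; a match on the other strand appears as its reverse complement.
Mcm6: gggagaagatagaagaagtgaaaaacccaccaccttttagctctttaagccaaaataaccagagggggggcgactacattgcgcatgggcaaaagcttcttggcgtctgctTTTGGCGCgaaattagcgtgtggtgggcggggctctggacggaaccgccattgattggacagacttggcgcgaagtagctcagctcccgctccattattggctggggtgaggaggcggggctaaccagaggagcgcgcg
Mcm5: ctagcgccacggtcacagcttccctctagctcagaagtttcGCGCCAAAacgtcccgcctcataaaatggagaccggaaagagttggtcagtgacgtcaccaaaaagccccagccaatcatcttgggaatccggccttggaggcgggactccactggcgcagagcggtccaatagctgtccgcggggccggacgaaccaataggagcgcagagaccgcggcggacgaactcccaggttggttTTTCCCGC
Mcm6 holds 1 match, which begins at -139, and Mcm5 holds 2, which begin at -209 and -8.

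Histone genes were among the 15 largest rises. H2ax, the histone variant phosphorylated at broken DNA, ranged from -0.97 to -0.51 (median -0.66) in unoperated and from -0.0003 to 3.03 (median 0.45) in PH30 livers. Rats 65, 98 and 140 sat near 0, rat 130 at 1.41 and rat 95 at 3.03, all above the unoperated rats. The mean rise was 3.01-fold (log2 difference 1.59 ± 0.41, adjusted p = 0.0127). H4c14 and H2bc8, members of clustered gene families whose copies are nearly identical, rose 2.79-fold (adjusted p = 0.00579) and 2.62-fold (adjusted p = 0.0124), and their probes may read other copies. Among 24 genes of the G1 phase and early growth, 2 rose and 1 fell (median 0.19; 4 higher and 0 lower, median 0.037, without rats 95 and 139). These calls made up 12.5% of the list, beside 9.85% over all genes tested. E2f8, an E2F repressor made in late G1, rose by 0.59 ± 0.16 (adjusted p = 0.0159), and Ier3, an early response gene, by 0.61 ± 0.16 (adjusted p = 0.0146). Jun, a subunit of the transcription factor AP-1, was called lower by 0.48 (adjusted p = 0.0395), but was not called without any 1 of PH30 rats 98, 130, 140 and 95 and unoperated rats 145, 152, 150 and 151 (log2 difference -0.46 to -0.42, adjusted p = 0.057 to 0.0928). Ccnd1, cyclin D1, differed by 0.16 ± 0.29 (adjusted p = 0.792), and Myc by -0.11 ± 0.23 (adjusted p = 0.832), a difference that turned to 0.0080 without unoperated rat 145.

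Of the 37 measured mitosis genes limma called 0 (1 at an unadjusted p below 0.05) higher and 0 (0 at an unadjusted p below 0.05) lower, with a median difference of 0.42; without rats 95 and 139 the counts were again 0 and the median 0.07. The spread among PH30 rats was wide. The mean of the list was 2.31 in rat 95 and 0.96 in rat 130, against -0.27, -0.23, -0.11 and 0.27 in rats 65, 140, 98 and 99, and unoperated rats lay from -0.068 to 0.17. Rats 95, 130 and 99 were thus above every unoperated rat and the other 3 below the unoperated minimum. Mki67, the proliferation antigen Ki-67, was highest in the same 3 rats: it lay from -0.047 to 0.19 (median 0.035) in unoperated rats, and in PH30 rats it was 3.10 in rat 95, 1.65 in rat 130, 0.71 in rat 99 and 0.20 to -0.55 in the rest. Its difference missed the threshold (log2 difference 0.76 ± 0.52, adjusted p = 0.396), as did that of Cdk1, the mitotic kinase (log2 difference 0.58 ± 0.40, adjusted p = 0.405). Sham rats were lower than both groups on this list, from -0.66 to -0.48, and 6 members were called higher in PH30 than in sham livers. For Mki67 the PH30 minus sham value was 2.33 (adjusted p = 0.00915), with sham minus unoperated at -1.57 (adjusted p = 0.182). In sham against unoperated rats 0 (0 at an unadjusted p below 0.05) mitosis genes were called higher and 0 (13 at an unadjusted p below 0.05) lower. Both results of PH30 against sham include rat 95, the highest on this list and for Mki67, and no value without it is given.

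Next came genes that restrain or drive growth. Of 17 p53 targets 0 (1 at an unadjusted p below 0.05) rose and 1 fell (median -0.0038; 0 higher and 1 lower, median -0.088, without rats 95 and 139). The fall was in Rrm2b, a ribonucleotide reductase subunit (log2 difference -0.54 ± 0.14, adjusted p = 0.0101). It made up 5.88% of the list, below the 9.85% called over all genes tested. Cdkn1a, the cell cycle inhibitor p21, ranged from -0.83 to 0.11 (median -0.33) in unoperated rats and from -0.78 to 1.71 (median -0.36) in PH30 rats, where rat 95 alone was above the unoperated range. Its difference was 0.21 ± 0.31 (adjusted p = 0.728) and -0.15 without rat 95. Among 26 growth factors and receptors 1 rose and 4 fell (median -0.04; 2 higher and 4 lower, median -0.0089, without rats 95 and 139), a share of 19.2% called beside 9.85% of all genes tested. Tgfb1, the growth-restraining ligand TGF-beta, rose by 0.71 ± 0.12 (adjusted p = 0.000403). Inhba, the subunit of activin A, another restraining ligand, fell by 0.77 ± 0.14 (adjusted p = 0.000617). Egf, epidermal growth factor, and Errfi1, a feedback inhibitor of its receptor, fell by 0.51 (adjusted p = 0.00289) and 0.63 (adjusted p = 0.00903). Igf1, the growth hormone-driven growth factor, was called lower by 0.25 (adjusted p = 0.0245), but was not called without any 1 of PH30 rats 98, 140 and 95 and unoperated rats 148, 150 and 151 (log2 difference -0.24 to -0.20, adjusted p = 0.0509 to 0.0665). Hgf, hepatocyte growth factor, showed -0.078 ± 0.20 (adjusted p = 0.866), and 0.083 without PH30 rat 99, which lay at -0.96 while the other PH30 rats were between -0.17 and 0.21. In ribosome biogenesis 1 of 27 members rose and 0 (2 at an unadjusted p below 0.05) fell (median -0.035; 2 higher and 3 lower, median -0.11, without rats 95 and 139), the rise being in Rrp9, a protein of the U3 small nucleolar particle (log2 difference 0.37 ± 0.11, adjusted p = 0.0279), which was not called without any 1 of PH30 rats 65 and 98 and unoperated rats 147 and 148 (log2 difference 0.33 to 0.36, adjusted p = 0.0516 to 0.071). The share of ribosome biogenesis genes called was 3.7%, below that of all genes. Afp, alpha-fetoprotein of fetal liver, showed log2 difference -0.27 ± 0.14, adjusted p = 0.256.

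Many metabolic genes fell. Of 29 measured cytochrome P450 genes and partners 1 rose and 11 fell, with a median of -0.44 (1 higher and 10 lower, median -0.42, without rats 95 and 139). Cyp2c11, the main P450 of the male rat liver, ranged from 0.84 to 1.22 (median 1.0) in unoperated and from -0.45 to 0.25 (median -0.10) in PH30 rats. All 6 PH30 rats were below the unoperated range, and the mean was 2.18-fold lower (log2 difference -1.12 ± 0.18, adjusted p = 0.000159). Cyp2d3, of a family with closely alike members, fell by 0.84 ± 0.12 (adjusted p = 3.83e-05). Cyp2b1, the phenobarbital-inducible P450, fell by 1.17 (adjusted p = 0.0192), but was not called without any 1 of PH30 rat 65 and unoperated rat 152 (log2 difference -1.07 to -1.02, adjusted p = 0.0535 to 0.056). The gene that rose was Por, the reductase that feeds electrons to microsomal P450 enzymes (1.84-fold, log2 difference 0.88 ± 0.16, adjusted p = 0.000857).

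Conjugation enzymes, which couple compounds to glutathione, sulfate, glucuronic acid or methyl groups, fell in 14 of 29 measured members and rose in 0 (1 at an unadjusted p below 0.05) (median -0.54; 1 higher and 14 lower, median -0.55, without rats 95 and 139). Gsta2, a glutathione transferase whose relatives Gsta1 and Gsta5 are close in sequence and also fell, lay from 0.70 to 1.35 (median 1.04) in unoperated and from -0.72 to 0.13 (median -0.27) in PH30 livers. The ranges did not meet, and the fall was 2.52-fold (log2 difference -1.33 ± 0.24, adjusted p = 0.000616). Gstm7 fell by 0.90 ± 0.14 (adjusted p = 0.000186). Inmt, a methyltransferase of indoles, fell by 0.86 ± 0.21 (adjusted p = 0.00679), and Ugt2b35, a glucuronosyltransferase, by 0.81 ± 0.18 (adjusted p = 0.00415). Fmo1, a flavin monooxygenase outside the list, ranged from 0.88 to 1.68 (median 1.29) in unoperated and from -0.52 to 0.42 (median -0.17) in PH30 rats and was among the 15 largest falls (log2 difference -1.43 ± 0.19, adjusted p = 2.45e-05). Sult1c2al1, named after a sulfotransferase, fell by 1.25 ± 0.22 (adjusted p = 0.000572).

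Transcription factors that maintain hepatocyte identity showed 2 rises and 2 falls among 22 (median -0.21; 2 higher and 3 lower, median -0.18, without rats 95 and 139). Nr1i3, the constitutive androstane receptor, which turns on Cyp2b genes, fell by 0.89 ± 0.25 (adjusted p = 0.0219), and its call was lost without unoperated rat 147 (log2 difference -0.80, adjusted p = 0.054). Rxra, the partner of many nuclear receptors, rose by 0.56 ± 0.13 (adjusted p = 0.00617). Its PH30 rat 95 stood alone at -0.62, the others at 0.25 to 0.52. Tbx3, a T-box repressor, was called higher by 0.56 (adjusted p = 0.0215) and Foxa2, a pioneer factor of liver genes, lower by 0.37 (adjusted p = 0.0479). Tbx3 lost its call without any 1 of PH30 rats 65 and 98 and unoperated rats 150 and 151 (log2 difference 0.51 to 0.54, adjusted p = 0.0501 to 0.0611), and Foxa2 without any 1 of PH30 rats 65, 98, 99, 130 and 95 and unoperated rats 152, 148, 150 and 151 (log2 difference -0.38 to -0.30, adjusted p = 0.0501 to 0.132).

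Of 44 measured genes of the urea cycle and amino acid breakdown 12 fell and 0 (0 at an unadjusted p below 0.05) rose, with a median of -0.38 (0 higher and 15 lower, median -0.40, without rats 95 and 139, and 8 lower without unoperated rat 147). Otc, ornithine transcarbamylase, the mitochondrial step that makes citrulline, lay from 0.50 to 0.89 (median 0.79) in unoperated and from -0.30 to 0.45 (median -0.015) in PH30 livers. The groups did not overlap, and the fall was 1.7-fold (log2 difference -0.77 ± 0.13, adjusted p = 0.000245). Bhmt, which remethylates homocysteine with betaine, showed the list's largest fall, 3.26-fold (log2 difference -1.70 ± 0.41, adjusted p = 0.00699). Its unoperated rats ranged from 0.66 to 1.34 (median 1.03), and PH30 rat 95, at 0.34, was nearer to them than the other 5 PH30 rats at -1.10 to -0.59. Gnmt, the glycine methyltransferase that disposes of methyl groups, fell by 0.88 ± 0.23 (adjusted p = 0.0125), and Amdhd1, of histidine breakdown, by 0.82 ± 0.19 (adjusted p = 0.00503). Cth, which makes cysteine from cystathionine, and Cps1, the entry enzyme of the urea cycle, were called lower by 0.90 (adjusted p = 0.0334) and 0.36 (adjusted p = 0.0468). Cth lost its call without any 1 of PH30 rats 65, 98 and 130 and unoperated rats 145, 152, 147, 148, 150 and 151 (log2 difference -0.92 to -0.84, adjusted p = 0.0515 to 0.0794), and Cps1 without any 1 of PH30 rats 65, 98, 99 and 130 and unoperated rats 145, 152, 147, 148, 150 and 151 (log2 difference -0.38 to -0.29, adjusted p = 0.0575 to 0.124).

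Fatty acid oxidation and ketone body genes fell in 10 of 30 measured members and rose in 0 (0 at an unadjusted p below 0.05) (median -0.31; 0 higher and 11 lower, median -0.28, without rats 95 and 139). Without PH30 rat 65, 5 were called lower. Bdh1, the dehydrogenase that makes beta-hydroxybutyrate, fell by 0.98 ± 0.23 (adjusted p = 0.00657). Acaa2 and Acadm, a thiolase and the medium-chain dehydrogenase of mitochondrial beta-oxidation, fell by 0.92 (adjusted p = 0.00126) and 0.73 (adjusted p = 0.00074). Acsl1, which activates fatty acids with coenzyme A, fell by 0.67 (adjusted p = 0.0166). In lipogenesis and triglyceride storage 4 of 29 members fell and 0 (1 at an unadjusted p below 0.05) rose (median -0.16; 0 higher and 5 lower, median -0.22, without rats 95 and 139), with 2 falls left without PH30 rat 98 or unoperated rat 150. Cidea, a lipid droplet protein, fell by 1.22 ± 0.32 (adjusted p = 0.0129), and Dgat2, the last enzyme of triglyceride synthesis, by 0.61 ± 0.13 (adjusted p = 0.00293). The elongase Elovl5 and the droplet coat protein Plin2 were called lower by 0.64 (adjusted p = 0.025) and 0.43 (adjusted p = 0.0427). Elovl5 lost its call without any 1 of PH30 rats 98 and 140 and unoperated rat 150 (log2 difference -0.62 to -0.57, adjusted p = 0.0505 to 0.0584), and Plin2 without any 1 of PH30 rats 65, 98, 99 and 140 and unoperated rats 147, 148, 150 and 151 (log2 difference -0.42 to -0.36, adjusted p = 0.074 to 0.121).

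Genes of glucose and glycogen handling fell in 6 of 20 members and rose in 3 (median -0.28; 3 higher and 6 lower, median -0.35, without rats 95 and 139). Pklr, the liver pyruvate kinase of glycolysis, ranged from 0.78 to 1.31 (median 1.09) in unoperated and from -0.64 to 0.38 (median -0.13) in PH30 livers. The 6 PH30 rats were all lower, with rats 65 and 98 lowest, and the fall was 2.33-fold (log2 difference -1.22 ± 0.26, adjusted p = 0.00232). Tkfc, which phosphorylates a product of fructose breakdown, fell by 0.99 ± 0.25 (adjusted p = 0.00917), and Ppp1r3b, which targets a phosphatase to glycogen, by 0.97 ± 0.22 (adjusted p = 0.00467). Pygl, liver glycogen phosphorylase, and Gpd1, glycerol phosphate dehydrogenase, fell by 0.78 (adjusted p = 0.00525) and 0.68 (adjusted p = 0.00806). The rises were in Pck2, Hk3 and Ppp1r3g. Of 27 bile acid genes 0 (1 at an unadjusted p below 0.05) rose and 3 fell (median -0.24; 1 higher and 3 lower, median -0.21, without rats 95 and 139). That is 11.1% of the bile acid list, beside 9.85% called over all genes tested. Slc10a1, the bile acid uptake carrier NTCP, fell by 0.66 ± 0.17 (adjusted p = 0.00985), and Hsd3b7, of bile acid synthesis, by 0.45 ± 0.10 (adjusted p = 0.00389). The organic anion carrier Slco1a4 fell by 1.23 (adjusted p = 0.0155), but was not called without PH30 rat 65 (log2 difference -1.02, adjusted p = 0.0561). Cyp7a1, the rate-limiting enzyme of bile acid synthesis, ranged widely among unoperated rats, from -1.34 to 1.36 (median -0.60), and its difference of 0.80 ± 0.49 missed the threshold (adjusted p = 0.33). Cholesterol synthesis and uptake had 0 (5 at an unadjusted p below 0.05) rises and 0 (0 at an unadjusted p below 0.05) falls among 18 by limma (median 0.23; 4 higher and 0 lower, median 0.22, without rats 95 and 139). Mvd and Sc5d, early and late enzymes of the pathway, had the smallest p, with differences of 0.46 (adjusted p = 0.0609) and 0.39 (adjusted p = 0.0922).

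The largest falls included genes that the lists did not hold. Stac3, known as a muscle calcium channel partner, ranged from 1.17 to 1.98 (median 1.57) in unoperated and from -2.26 to 1.04 (median 0) in PH30 livers. PH30 rat 95 was lowest and rat 140 highest, near the unoperated minimum, and the fall was 3.39-fold (log2 difference -1.76 ± 0.31, adjusted p = 0.000501). Slc6a6, the taurine transporter, fell 3.07-fold, log2 difference -1.62 ± 0.30, adjusted p = 0.000686. Ptgr1, which reduces prostaglandin breakdown products, fell 2.75-fold, log2 difference -1.46 ± 0.17, adjusted p = 2.75e-06, and Nrep, a small regeneration-related protein first described in neurons, 2.71-fold, log2 difference -1.44 ± 0.20, adjusted p = 3.53e-05. Hao2, a peroxisomal hydroxyacid oxidase, fell by 1.31 ± 0.31 (adjusted p = 0.00702), and Cxcl13, a chemokine for B cells, by 1.22 ± 0.18 (adjusted p = 8.81e-05). Aldh1a1, a retinaldehyde dehydrogenase, was called lower by 1.28 (adjusted p = 0.0232), with its ranges overlapping and its call lost without any 1 of PH30 rats 65 and 99 (log2 difference -1.17 to -1.0, adjusted p = 0.0571 to 0.0806).

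Of 17 glucocorticoid responsive genes 2 rose and 3 fell (median -0.12; 2 higher and 3 lower, median -0.13, without rats 95 and 139). Nr3c1, the glucocorticoid receptor itself, lay from 0.41 to 0.87 (median 0.53) in unoperated and from -0.42 to 0.017 (median -0.11) in PH30 rats, with no overlap. It fell by 0.75 ± 0.13 (adjusted p = 0.000277). Hsd11b1, which regenerates active glucocorticoid inside hepatocytes, fell by 0.60 ± 0.13 (adjusted p = 0.00294). The phosphatase Dusp1 was called lower by 0.94 (adjusted p = 0.0288), but was not called without any 1 of PH30 rats 98 and 95 and unoperated rats 152, 150 and 151 (log2 difference -0.91 to -0.80, adjusted p = 0.0542 to 0.086). The rises were Lcn2 and Mt1, which the acute phase list also holds. Among 18 clock genes 0 (5 at an unadjusted p below 0.05) rose and 3 fell (median 0.13; 1 higher and 3 lower, median 0.15, without rats 95 and 139). Npas2, a partner of BMAL1, fell 2.11-fold, log2 difference -1.07 ± 0.19, adjusted p = 0.000616, and Rora, a nuclear receptor that feeds the clock, by 0.44 ± 0.11 (adjusted p = 0.00822). Clock was called lower by 0.27 (adjusted p = 0.0221), a call it lost without any 1 of PH30 rats 65 and 98 and unoperated rat 148 (log2 difference -0.25 to -0.24, adjusted p = 0.0583 to 0.0623). The hour of day at which livers were taken is not given.

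Protein folding genes of the endoplasmic reticulum rose in 6 of 27 members and fell in 1 (median 0.17; 7 higher and 1 lower, median 0.18, without rats 95 and 139). The fall was in Xbp1, the transcription factor that drives much of this program. Its PH30 rats lay at -1.06 to -0.43 except rat 95 at 0.26, which was inside the unoperated range from 0.017 to 0.60 (median 0.30). The gene fell 1.93-fold, log2 difference -0.95 ± 0.22, adjusted p = 0.00626. The chaperone partners Dnajb11 and Hyou1 rose by 0.66 (adjusted p = 0.000186) and 0.59 (adjusted p = 0.00773), the ubiquitin ligase Syvn1 by 0.57 (adjusted p = 0.00512) and the secreted Manf by 0.56 (adjusted p = 0.00072). Of 15 heat shock genes 2 rose and 1 fell (median 0.21; 2 higher and 2 lower, median 0.18, without rats 95 and 139). The co-chaperones Bag3 and Dnajb1 rose by 0.44 (adjusted p = 0.00336) and 0.34 (adjusted p = 0.016). Hspa4 was called lower by 0.28 (adjusted p = 0.0464), but was not called without any 1 of PH30 rats 65, 98, 99, 130 and 140 and unoperated rats 152, 147, 148, 150 and 151 (log2 difference -0.30 to -0.23, adjusted p = 0.055 to 0.134).

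Targets of the oxidative stress factor NRF2 moved in both directions, 2 up and 4 down of 21 (median -0.076; 3 higher and 5 lower, median -0.086, without rats 95 and 139). Nqo1, a quinone reductase, ranged from -1.28 to -0.44 (median -0.94) in unoperated and from -0.27 to 0.87 (median 0.16) in PH30 rats. It was higher in every PH30 rat, 2.18-fold, log2 difference 1.12 ± 0.25, adjusted p = 0.00413. Hmox1, which degrades heme, rose by 0.93 ± 0.23 (adjusted p = 0.00863). Gclm, of glutathione synthesis, Gpx1, a peroxidase, and Sqstm1, an autophagy receptor, fell by 0.60 (adjusted p = 0.000646), 0.57 (adjusted p = 0.000855) and 0.51 (adjusted p = 0.00904). The fourth fall was Prdx1. Iron and heme handling had 5 rises and 1 fall among 23 (median -0.0018; 5 higher and 3 lower, median 0.037, without rats 95 and 139), and 3 of the rises, Hp, Cp and Hpx, are acute phase proteins. Steap3, which reduces iron in endosomes of the transferrin cycle, ranged from 1.07 to 1.44 (median 1.19) in unoperated and from -0.55 to 0.34 (median 0.094) in PH30 rats. The groups were apart, with a 2.38-fold fall (log2 difference -1.25 ± 0.13, adjusted p = 4.23e-07). Tfr2, the iron-sensing transferrin receptor of hepatocytes, rose by 0.44 ± 0.10 (adjusted p = 0.00648).

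Interferon-stimulated genes were called higher in 5 of 26 members and lower in 0 (0 at an unadjusted p below 0.05) (median 0.29; 6 higher and 0 lower, median 0.22, without rats 95 and 139). Xaf1, a pro-apoptotic protein, Oasl, an antiviral protein, and Isg20, an exonuclease, rose by 0.67 (adjusted p = 0.00219), 0.67 (adjusted p = 0.0138) and 0.55 (adjusted p = 0.00415). Irf7, the factor that amplifies interferon, and Oas2 were called higher by 0.87 (adjusted p = 0.0367) and 0.33 (adjusted p = 0.0351). Irf7 lost its call without any 1 of PH30 rats 65, 99, 140 and 95 and unoperated rats 145, 152, 147 and 150 (log2 difference 0.73 to 0.91, adjusted p = 0.0502 to 0.109), and Oas2 without any 1 of PH30 rat 65 and unoperated rats 147, 148, 150 and 151 (log2 difference 0.24 to 0.34, adjusted p = 0.0577 to 0.118). The count was 3 without PH30 rat 65 or unoperated rats 147 or 150, and 11 without PH30 rat 130. In polyamine and nucleotide synthesis 2 of 31 members rose and 3 fell (median 0.025; 4 higher and 6 lower, median -0.056, without rats 95 and 139). Tymp, thymidine phosphorylase, ranged from 1.19 to 1.52 (median 1.25) in unoperated and from -1.5 to 0.81 (median 0.15) in PH30 rats, rat 95 being far below the rest. It fell 2.54-fold, log2 difference -1.34 ± 0.24, adjusted p = 0.000684. Ppat and Ctps2, of purine and cytidine synthesis, fell by 0.53 (adjusted p = 0.004) and 0.42 (adjusted p = 0.00364). Of the uridine phosphorylases, Upp1 rose by 0.38 (adjusted p = 0.00557), and Upp2 was called higher by 0.75 (adjusted p = 0.0209), but was not called without any 1 of PH30 rats 98 and 130 and unoperated rat 148 (log2 difference 0.62 to 0.70, adjusted p = 0.0519 to 0.0637). The count of rises was 1 without PH30 rat 130 or unoperated rat 148.

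**Figure D3:**
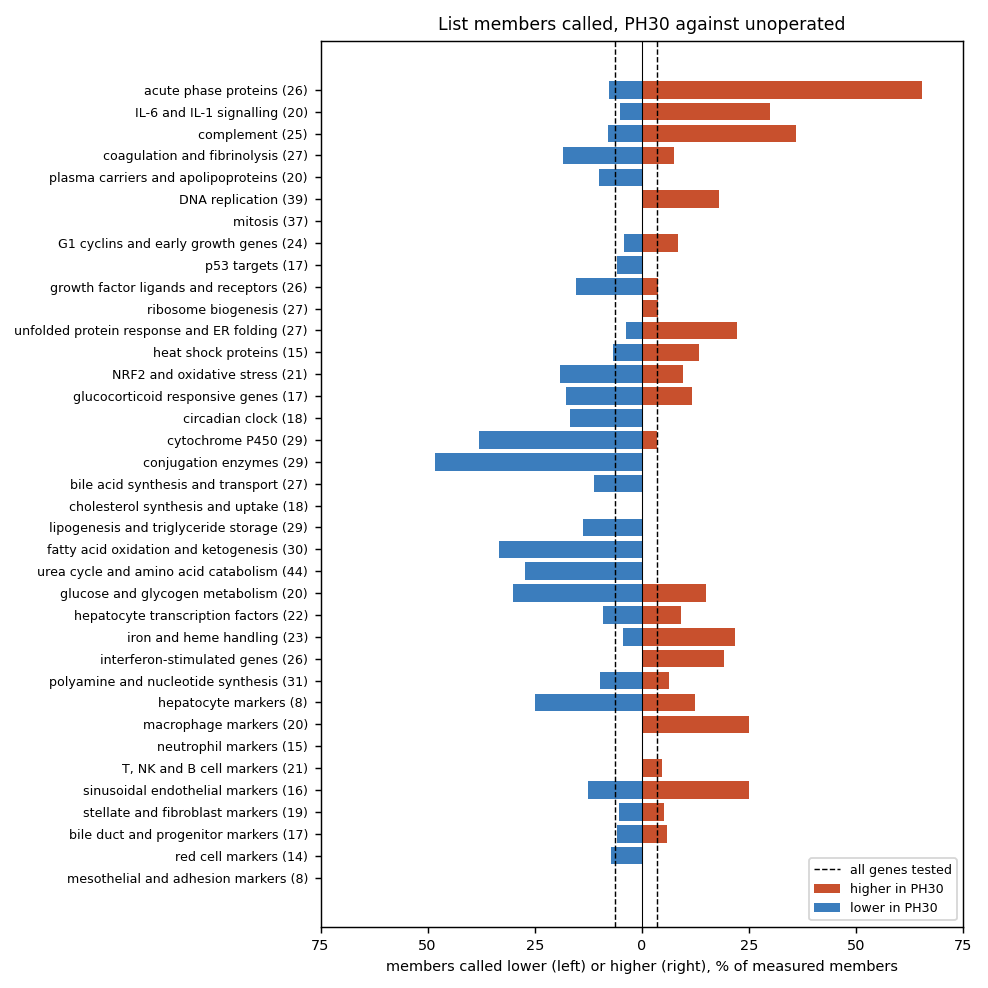
Share of each list's measured members (number in parentheses after the list's name) called higher (bars to the right) or lower (to the left) in PH30 than in unoperated livers, in percent. Dashed lines mark the shares over all genes, 3.48% higher and 6.37% lower; acute phase proteins reach 17 of 26 on the right and conjugation enzymes 14 of 29 on the left.

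Markers of the cell types a liver holds were read in the same way. Macrophage markers rose in 5 of 20 and fell in 0 (0 at an unadjusted p below 0.05) (median 0.31; 10 higher and 0 lower, median 0.34, without rats 95 and 139, and 9 higher without rat 95 alone). The mean of the list ran from -0.36 to -0.018 in unoperated rats and from -0.20 to 0.37 in PH30 rats. Lgals3, galectin-3, ranged from -1.58 to -1.05 (median -1.10) in unoperated and from -0.27 to 0.45 (median 0) in PH30 rats, without overlap, a rise of 2.32-fold (log2 difference 1.21 ± 0.14, adjusted p = 8.37e-07). Marco, a scavenger receptor, rose 2.6-fold, log2 difference 1.38 ± 0.20, adjusted p = 8.17e-05, with PH30 rat 95, at -0.38, inside the unoperated range from -1.18 to -0.033 (median -0.74) and the other 5 above it. Gpnmb, a glycoprotein of lipid-laden macrophages, rose by 0.87 ± 0.21 (adjusted p = 0.00806), and Mpeg1, perforin-2, by 0.47 ± 0.089 (adjusted p = 0.000953). Cd68, a lysosomal protein, was called higher by 0.55 (adjusted p = 0.0238), but was not called without any 1 of PH30 rats 65, 98 and 130 and unoperated rats 145 and 151 (log2 difference 0.48 to 0.52, adjusted p = 0.0533 to 0.0679).

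Neutrophil markers showed 0 (6 at an unadjusted p below 0.05) rises and 0 (0 at an unadjusted p below 0.05) falls among 15 by limma (median 0.15; 1 higher and 0 lower, median 0.14, without rats 95 and 139). The mean of the list ran from -0.14 to -0.055 in unoperated rats and from -0.0043 to 0.13 in PH30 rats, which do not overlap. List means were also apart for other lists, among them plasma carriers and apolipoproteins, lipogenesis and bile acid genes. The neutrophil markers with the smallest p are named next. Those with the smallest p were Camp, an antimicrobial peptide (log2 difference 0.19 ± 0.072, adjusted p = 0.102), and Cxcr2, a chemokine receptor (log2 difference 0.30 ± 0.12, adjusted p = 0.115). Of 21 lymphocyte markers 1 rose, Cd79a of the B cell receptor (log2 difference 0.27 ± 0.07, adjusted p = 0.0135), and 0 (0 at an unadjusted p below 0.05) fell (median 0.033; 1 higher and 0 lower, median 0.045, without rats 95 and 139). Hepatocyte markers had 1 rise, Fgb, the fibrinogen beta chain, and 2 falls, Ttr and Cps1, among 8 (median -0.063; 1 higher and 2 lower, median -0.10, without rats 95 and 139), of which Cps1 lost its call without any 1 of PH30 rats 65, 98, 99 and 130 and unoperated rats 145, 152, 147, 148, 150 and 151 (log2 difference -0.38 to -0.29, adjusted p = 0.0575 to 0.124).

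Sinusoidal endothelial markers rose in 4 of 16 and fell in 2 (median 0.094; 6 higher and 2 lower, median 0.11, without rats 95 and 139). Gpr182, an endothelial chemokine scavenger, rose by 0.61 ± 0.12 (adjusted p = 0.00149), and Rspo3, a secreted enhancer of Wnt signalling, fell by 0.54 ± 0.11 (adjusted p = 0.00118). Cdh5, vascular cadherin, and Lyve1, a hyaluronan receptor, were called higher by 0.45 (adjusted p = 0.0178) and 0.40 (adjusted p = 0.0408), and Ehd3 lower by 0.56 (adjusted p = 0.0477). Cdh5 lost its call without PH30 rat 98 (log2 difference 0.38, adjusted p = 0.0556), Lyve1 without any 1 of PH30 rats 65, 98 and 130 and unoperated rats 145, 152, 147, 148 and 150 (log2 difference 0.36 to 0.43, adjusted p = 0.0502 to 0.099), and Ehd3 without any 1 of PH30 rats 65, 98, 130 and 95 and unoperated rats 145, 152, 147, 148, 150 and 151 (log2 difference -0.58 to -0.52, adjusted p = 0.0542 to 0.0968). The count of rises was 1 without PH30 rat 98 and 2 without PH30 rat 130 or unoperated rats 147 or 148. Of 19 stellate cell and fibroblast markers Timp1 rose and Pdgfrb, a receptor of platelet-derived growth factor, fell (log2 difference -0.33 ± 0.086, adjusted p = 0.0129); the median was 0.094, with 1 higher and 3 lower, median 0.13, without rats 95 and 139. Of 17 bile duct and progenitor markers Krt18 rose (log2 difference 0.51 ± 0.15, adjusted p = 0.0263) and Anxa4 fell (log2 difference -0.57 ± 0.11, adjusted p = 0.00146), with a median of 0.075 and 2 higher and 1 lower, median 0.062, without rats 95 and 139. Krt18, which hepatocytes also make, lost its call without PH30 rat 99 (log2 difference 0.46, adjusted p = 0.0638). Red cell markers had 0 (2 at an unadjusted p below 0.05) rises and 1 fall among 14 (median 0.088; 1 higher and 1 lower, median 0.085, without rats 95 and 139), the fall being Car1, carbonic anhydrase, at 0.48 to 1.73 in unoperated and -0.073 to 0.09 in PH30 rats (log2 difference -1.03 ± 0.14, adjusted p = 1.47e-05). Mesothelial and adhesion markers had 0 (3 at an unadjusted p below 0.05) rises and 0 (0 at an unadjusted p below 0.05) falls among 8 by limma (median 0.14; 2 higher and 0 lower, median 0.17, without rats 95 and 139). Shares called were 10.5% of stellate cell and fibroblast markers and 11.8% of bile duct and progenitor markers. They were 7.14% of red cell and 4.76% of lymphocyte markers, and 9.85% of all genes tested. The part of these cells in the differences of other genes was not tested.

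**Figure D4:**
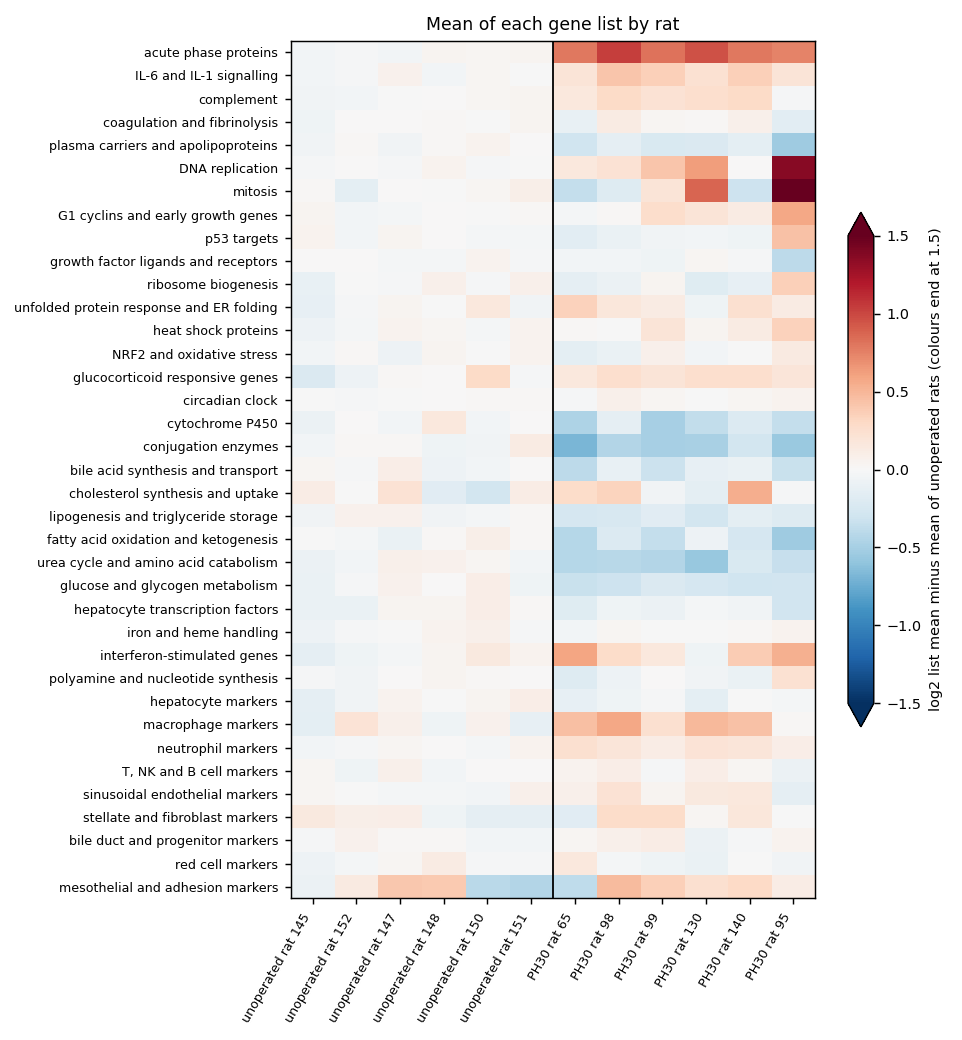
Mean log2 value of each gene list (rows) in each unoperated and PH30 rat (columns), as the difference from the mean of the unoperated rats (colour, in log2 units, ending at 1.5). The acute phase row is raised in all 6 PH30 rats, while the mitosis row is raised in rat 95 (list mean 2.31) and rat 130 (0.96) and not in rats 65, 98 or 140.

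The comparison contains both an operation and a resection, and sham rats had the operation alone. Sham and unoperated livers differed for 56 genes called higher (0.308%) and 78 called lower (0.429%). PH30 and sham livers differed for 399 called higher (2.2%) and 606 called lower (3.34%). The 3 comparisons share arrays, so their values are set side by side, and PH30 against sham is the test of whether PH30 and sham differ in their distance from unoperated rats. The acute phase list had 11 members called higher and 1 lower in sham than in unoperated rats, and 3 higher and 0 (2 at an unadjusted p below 0.05) lower in PH30 than in sham rats. A2m in sham rats was 9.75-fold above unoperated rats (adjusted p = 2.45e-06), and PH30 and sham differed by 0.70 ± 0.37 (adjusted p = 0.303). Lcn2 in sham rats was 13.2-fold above unoperated rats (adjusted p = 1.38e-05) and 3.19-fold higher in PH30 than in sham rats (adjusted p = 0.0315). The other acute phase genes higher in PH30 than in sham rats were Orm1 (log2 difference 0.56, adjusted p = 0.0331) and Timp1 (log2 difference 1.18, adjusted p = 0.0193). For Stat3 sham rats lay from 0.064 to 0.12 (median 0.08), with PH30 minus sham at -0.093 ± 0.15 (adjusted p = 0.794). Steap3 was lower in sham rats (log2 difference -1.38, adjusted p = 9.28e-08) and showed 0.13 ± 0.13 between PH30 and sham (adjusted p = 0.656). Complement genes numbered 5 higher and 0 (0 at an unadjusted p below 0.05) lower in sham than in unoperated rats, and 0 (0 at an unadjusted p below 0.05) higher and 2 lower in PH30 than in sham rats.

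DNA replication genes were called in PH30 against sham, where the PH30 rats include rat 95 (list mean 1.14) and no count without it is given. In sham against unoperated rats 0 (0 at an unadjusted p below 0.05) of 39 DNA replication genes were called higher and 0 (1 at an unadjusted p below 0.05) lower, and in PH30 against sham 11 were called higher and 0 (0 at an unadjusted p below 0.05) lower. Mcm6 was 2.72-fold higher in PH30 than in sham rats (adjusted p = 0.0151), with sham minus unoperated at -0.16 (adjusted p = 0.933), and H2ax was 3.24-fold higher (adjusted p = 0.0149), with sham minus unoperated at -0.11 (adjusted p = 0.966). Among P450 genes sham rats had 1 called higher, Por (log2 difference 0.76, adjusted p = 0.0192), and 0 (4 at an unadjusted p below 0.05) lower, and PH30 against sham gave 0 (1 at an unadjusted p below 0.05) higher and 7 lower. Cyp2c11 was 1.75-fold lower in PH30 than in sham rats (adjusted p = 0.00806). Conjugation enzymes gave 5 falls in PH30 against sham and 1 in sham against unoperated, urea cycle and amino acid genes 4 and 0 (6 at an unadjusted p below 0.05), and fatty acid oxidation genes 3 and 2. Otc was lower in PH30 than in sham rats (log2 difference -0.59, adjusted p = 0.00775), as were Nr3c1 (log2 difference -0.81, adjusted p = 0.00193), Fmo1 (log2 difference -1.08, adjusted p = 0.00318) and Stac3 (log2 difference -1.43, adjusted p = 0.00798). Glucose and glycogen genes gave 0 (1 at an unadjusted p below 0.05) rises and 0 (3 at an unadjusted p below 0.05) falls in PH30 against sham, and Pklr showed -0.36 ± 0.26 there (adjusted p = 0.467). Marco and Lgals3 were higher in PH30 than in sham rats, by 0.84 (adjusted p = 0.0154) and 0.80 (adjusted p = 0.00209). They were the only 2 of 20 macrophage markers called higher there. Of the rest 0 (1 at an unadjusted p below 0.05) were called lower, and the median of the list was 0.056.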

How the data were processed

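Livers of 30 Wistar rats were measured on 1 array each. Per the submitters' processing notes the authors made the values with RMA in Affymetrix Expression Console, versions not given. The deposited table names neither scale nor centring, and its values are read as log2, the scale RMA gives. Each of its 29489 probe sets has a median of 0 over the 30 arrays. RMA sets the arrays to a common distribution, so a shift of most genes at once would not be seen. A single gene symbol was listed for 18511 probe sets, several for 575 and none for 10403; 18394 were matched by Entrez ID to a RefSeq gene table, which changed 0 symbols. The mean of the probe sets stood for the 291 genes with more than 1.

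The test was that of limma 3.58.1 (R 4.3.3), two-sided, on all 30 arrays with 1 mean per group (25 residual and 3.71 prior degrees of freedom), called at a Benjamini-Hochberg adjusted p below 0.05, and the script was tested on simulated data. Replicates are rats, and 6 arrays per group limit the precision. No set test was run: lists are given as counts and medians. Named are the 15 largest rises and falls, in each list the 5 or fewer called members that changed most (or the 2 with the smallest p) and 10 genes followed whatever the result. Tnfrsf1a, Jak1, Itih4, Mt2A and Ahsg were added after their values were seen, as were the genes under the last heading. Some called members past the first 5 of a list, among them C8g, Proc, Plg, Rpa2 and Cdc45, are also named. The comparison, genes and lists were chosen with earlier results of these data known. The planned filter on low values could not be applied to centred values. Alternatives are in the closing section. Promoters came from RefSeq, assembly GRCr8.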

Additional observations from a re-analysis of the deposited data

Results flagged for a closer look

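Within a group of 6 rats, 1 rat's value was far from the other 5 (Dixon's 95% limit for the gap to the nearest other) in 25 of 354 groups examined, and chance gives about 1 in 20. PH30 rat 95 accounted for 12 of them. Its log2 values were Serping1 -0.25 (others 0.33 to 0.40), Mbl2 0.71 (others -0.22 to 0.015), Mcm5 2.08 (others -0.22 to 0.44) and Mcm3 1.39 (others -0.12 to 0.34). They were Cdkn1a 1.71 (others -0.78 to -0.036), Tgfb1 -0.23 (others 0.23 to 0.48), Rxra -0.62 (others 0.25 to 0.52) and Bhmt 0.34 (others -1.10 to -0.59) for the next genes, and Gnmt -0.98 (others -0.063 to 0.29), Acadm -0.61 (others -0.039 to 0.081), Tymp -1.5 (others -0.021 to 0.81) and Fgl1 -0.45 (others 0.22 to 0.54) for the rest.

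Other single PH30 rats stood apart: in PH30 rat 65 Timp1 -1.80 (others -0.11 to 0.64), in PH30 rat 130 Apoc2 -0.50 (others -0.019 to 0.035), in PH30 rat 99 Hgf -0.96 (others -0.17 to 0.21), in PH30 rat 65 Oas2 0.68 (others -0.0019 to 0.16) and in PH30 rat 130 Camp 0.29 (others 0.052 to 0.10). Among unoperated rats these were in rat 150 Lbp -1.35 (others -1.94 to -1.73), in rat 147 Serpina10 -0.74 (others -0.30 to -0.098), in rat 147 E2f8 -0.073 (others -0.36 to -0.25), in rat 147 Ier3 -0.81 (others -0.34 to -0.15) and in rat 145 Lgals3 -1.58 (others -1.23 to -1.05). There were also in rat 152 Insig2 0.42 (others 0.98 to 1.09), in rat 151 Pik3c2g 0.87 (others 1.22 to 1.34) and in rat 148 DNA replication list mean -0.17 (others -0.24 to -0.22).

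Probe sets with several gene symbols or none, left out of the comparison, were fitted together with all 29489 probe sets and adjusted over them. Of 10978 such probe sets, 303 were called higher and 246 lower in PH30 than in unoperated livers (5.0%, beside 9.85% of the 18166 genes). For 145 of the 10978 every PH30 rat was above every unoperated rat, beside 329 of the genes (1.81%). The opposite direction was not counted for these probe sets.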

How the results depend on the processing

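With 1 rat left out at a time, between 459 and 907 genes were called higher and between 791 and 1455 lower. Without rats 95 and 139, 1058 were called higher; with array weights 1117 were called higher and 1743 lower; with the PH30 and unoperated arrays alone and no rat 95, an alternative chosen after seeing the data, 1185 and 1855. Fitting those 12 arrays alone, a robust prior, genes with 1 probe set, median centring of each array, renewed quantile normalization (937 and 1669) and leaving out the least variable genes kept both counts within 1.5 times; the share called higher was 35.3%, and 31.5% to 39.7% under the other settings. Calls were followed under each setting for 162 of the called genes named in the text, and Cdc45 and Rpa2 were not among these. Of the 162, 131 kept their call under each removal of 1 rat, 0 reversed, and 161 kept it without rats 95 and 139. Genes with stable calls were described more fully. The uncalled Cdkn1a reversed with array weights (-0.011), without rats 95 and 139 (-0.15) and with the 12 arrays less rat 95 (-0.15). Over single removals it ran from -0.15 to 0.35, Myc from -0.23 to 0.0080 and Hgf from -0.15 to 0.083. The renewed quantile step acted on values already centred per probe set, so it made the spread of centred values alike in every array. Renewed quantile normalization took the rises in DNA replication from 7 to 13, in G1 cyclins and early growth genes from 2 to 4, in heat shock proteins from 2 to 5, in NRF2 and oxidative stress from 2 to 4, in cholesterol synthesis and uptake from 0 to 2, in macrophage from 5 to 8 and in mesothelial and adhesion from 0 to 3, and the falls in plasma carriers and apolipoproteins from 2 to 8, in bile acid synthesis and transport from 3 to 10, in urea cycle and amino acid catabolism from 12 to 21, in hepatocyte transcription factors from 2 to 4, in iron and heme handling from 1 to 4 and in stellate and fibroblast from 1 to 3, and it moved 7 other list counts over 1.5 times by 1 gene. The fit of the 12 arrays alone took the rises in DNA replication from 7 to 12, in G1 cyclins and early growth genes from 2 to 4, in NRF2 and oxidative stress from 2 to 4, in circadian clock from 0 to 2, in interferon-stimulated genes from 5 to 8 and in neutrophil from 0 to 3, and the falls in plasma carriers and apolipoproteins from 2 to 4, in bile acid synthesis and transport from 3 to 7 and in iron and heme handling from 1 to 3, and it moved 6 other list counts over 1.5 times by 1 gene. Median centring of each array took the falls in plasma carriers and apolipoproteins from 2 to 4. The 12 arrays alone lost 5 of the 162 calls, Jun (adjusted p = 0.0608), Igf1 (adjusted p = 0.0588), Foxa2 (adjusted p = 0.082), Plin2 (adjusted p = 0.0625) and Hspa4 (adjusted p = 0.122). Renewed quantile normalization lost Oas2. No paired analysis was possible because the rats carry numbers that no groups share. Centred values hide signal over background, so dim genes could not be set apart.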

Other observations

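Genes that neither the lists nor the rule for named genes picked were read after their values were seen, from among the called genes. Fgl1, a secreted fibrinogen-like protein of the liver, was higher in every PH30 rat than in every unoperated rat (2.58-fold, log2 difference 1.37 ± 0.14, adjusted p = 3e-07). Jak3, a kinase of cytokine receptors, rose by 0.80 ± 0.10 (adjusted p = 7.36e-06), and Ifitm3, which blocks virus entry, by 1.04 ± 0.19 (adjusted p = 0.000855). Slc13a3, a dicarboxylate carrier, rose by 1.10 (adjusted p = 0.00686), Fxyd5, a regulator of the sodium pump, by 0.89 (adjusted p = 9.82e-05) and the cold-inducible RNA-binding protein Rbm3 by 0.74 (adjusted p = 0.0035). Further histone genes rose, H2ac12 by 1.13 (adjusted p = 0.00781) and H2bc12 by 1.02 (adjusted p = 0.00806), both from families of nearly identical copies.

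The lipoprotein-bound esterases Pon3 and Pon1, which detoxify oxidised lipids, fell by 1.12 ± 0.12 (adjusted p = 4.61e-07) and 0.77 ± 0.11 (adjusted p = 3.86e-05), each without overlap between the groups. Enpp2, which makes lysophosphatidic acid, fell by 1.09 (adjusted p = 2.49e-05), Lipc, hepatic lipase, by 0.86 (adjusted p = 7.85e-06) and Sgpl1, the sphingosine phosphate lyase, by 0.88 (adjusted p = 7.36e-06). Insig2, which restrains cholesterol synthesis, fell 2.31-fold, log2 difference -1.21 ± 0.19, adjusted p = 0.000178, and Pik3c2g, a lipid kinase of hepatocytes, 2.31-fold, log2 difference -1.21 ± 0.18, adjusted p = 8.17e-05. Papss2, which makes the sulfate donor, fell by 0.93 (adjusted p = 0.000796), Ddc, which makes dopamine and serotonin, by 0.94 (adjusted p = 0.000261), Adhfe1, a hydroxyacid transhydrogenase, by 0.89 (adjusted p = 3e-07) and Mug2, a relative of A2m, by 0.93 (adjusted p = 8.17e-05).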
